A study of Mus musculus with 8 samples.

Results

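Microglia from uninjured mice with a conditional knockout (cKO) of A20 were compared with microglia from uninjured control mice. The comparison rests on 2 of the 8 single-cell RNA-seq libraries of the series, A20 cKO naive and control naive. Members were the cells of these libraries with at least 1000 UMIs (unique molecular identifiers, each marking 1 captured RNA molecule), at least 500 genes and at most 10% mitochondrial UMIs. This left 2922 cells of A20 cKO naive and 568 cells of control naive, or 3490 of the 14626 cells kept over all libraries. Control mice were Cx3cr1-yfp-creER/+ and A20 cKO mice were Cx3cr1-yfp-creER/+ with Tnfaip3 fl/fl, both on the strain C57BL/6. Both genotypes thus carried 1 Cx3cr1 allele replaced by YFP and a tamoxifen-inducible Cre, so Cre acts in any cell that expresses Cx3cr1. The methods describe adult animals given tamoxifen on consecutive days shortly before the experiments, without naming which of these libraries were so treated. YFP-positive cells were sorted from the lumbar spinal cord, with the tissue of several animals combined in each library. The other 6 libraries, taken 1, 2 and 3 days after sciatic nerve transection in both genotypes, are used only to set a level beside the naive ones.

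A20, the product of Tnfaip3, is a ubiquitin-editing enzyme that ends signals running from TNF and Toll-like receptors to the transcription factor NF-kB. Microglia are the resident macrophages of the spinal cord and brain, and in healthy tissue they express a set of sensing and housekeeping genes called homeostatic. Type I interferon acts on such cells through transcription factors that bind the interferon-stimulated response element, and one outcome is more MHC class I on the surface, which presents peptides to CD8 T cells.

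Each genotype had 1 naive library, so no test between them was possible and no p-value is given. A gene's level is its UMIs summed over the cells of a library, per 1000000 UMIs (CPM). Ratios are log2 of A20 cKO naive over control naive with 0.5 UMIs added to each sum, and the range after a value is a 95% interval that covers counting error only, not differences between animals or preparations. A gene counts as higher or lower when its ratio was at least 2-fold (log2 of 1) and its interval did not reach 0. A gene was measured when its UMIs in the naive pair came to 100 or more. Most of these UMIs came from A20 cKO naive, so a gene rare in control naive was measured only where A20 cKO naive had many, and counts and medians over the measured members of a list describe those members alone. Control naive held 1620481 UMIs in its kept cells and A20 cKO naive 8919100, with similar medians of 2780 and 2824 UMIs per cell.

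Whether the libraries were prepared together is not given in the sources used here. A20 cKO naive shared 35 barcodes with control day 3 and 32, 19 and 18 with A20 cKO days 1, 2 and 3, but 4 with control naive. Per 1000000 pairs of barcodes that is 5.41 for control day 3 and 9.11 to 11.5 for the A20 cKO libraries, against 2.20, 1.41 and 1.78 for control naive, day 1 and day 2. The rates did not divide the libraries cleanly, since control naive shared 8.83, 4.69 and 8.51 per 1000000 pairs with A20 cKO days 1 to 3, on 5, 2 and 3 barcodes, and A20 cKO days 1 to 3 shared 33.4 to 67.6 among themselves. Ttr, made by the choroid plexus, had UMIs in the 4 A20 cKO libraries and control day 3 and 0 UMIs in the other 3 control libraries. In A20 cKO naive 60.6% of its 1580 UMIs over all deposited barcodes lay under 1 barcode. With 1 library per group, a difference between the naive libraries cannot be told apart from one in preparation, also where control day 3 shares it. For this reason control day 3 is given beside many results, although its animals were injured. A value printed without it stands without that comparison. Without the barcodes found in another library, 649 genes were 2-fold higher and 189 lower, against 642 and 192 with them. All 8 libraries had at most 0.137 CPM of Xist, so none differed in sex by this measure.

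Both libraries had the markers of microglia. Tmem119, a membrane protein of microglia, was found in 98.8% of control naive and 98.4% of A20 cKO naive cells when every cell was thinned to 2000 UMIs. P2ry12, a purinergic receptor, was found in 99.8% of control naive and 93.8% of A20 cKO naive cells. The monocyte gene Ccr2 stood at 1.9 CPM in both, and the border macrophage genes Cd163, Lyve1 and Cd209f had no UMI in either, while the summed levels of their lists were higher in A20 cKO naive, as given with the other cell types.

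To show the sequences next to which the results stand, the 250 bases before the start of 5 genes are printed as given by RefSeq on GRCm38.p6, 5′ to 3′ on the gene's own strand. Capitals mark matches on either strand to GAAANNGAA, a form of the interferon-stimulated response element, and to GGANTTTCC, a form of the NF-kB site. Cxcl10 (chr5:92348890-92349139, minus strand) held 1 match to each, Ifit3 (chr19:34583279-34583528, plus strand) and Cybb (chrX:9469325-9469574, minus strand) held 3 to the response element, and Nfkbia (chr12:55492648-55492897, minus strand) held 2 to the NF-kB site and 1 to the response element. H2-Q7 (chr17:35438905-35439154, plus strand) held no match to either pattern. Other forms of these sites were not searched for, so a stretch without a match may still hold one. The start used for Cybb lies inside the span of the gene, whose annotated 5′ end is farther upstream.
Cxcl10: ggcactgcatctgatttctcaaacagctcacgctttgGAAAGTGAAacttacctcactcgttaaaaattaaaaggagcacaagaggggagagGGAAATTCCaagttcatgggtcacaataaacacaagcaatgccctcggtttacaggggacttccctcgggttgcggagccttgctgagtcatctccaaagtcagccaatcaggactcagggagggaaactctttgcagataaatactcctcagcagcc
Ifit3: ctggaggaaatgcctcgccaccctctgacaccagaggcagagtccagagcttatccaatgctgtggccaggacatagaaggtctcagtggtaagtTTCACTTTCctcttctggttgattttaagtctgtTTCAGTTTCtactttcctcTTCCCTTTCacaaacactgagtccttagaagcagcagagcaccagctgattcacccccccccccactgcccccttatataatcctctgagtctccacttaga
Cybb: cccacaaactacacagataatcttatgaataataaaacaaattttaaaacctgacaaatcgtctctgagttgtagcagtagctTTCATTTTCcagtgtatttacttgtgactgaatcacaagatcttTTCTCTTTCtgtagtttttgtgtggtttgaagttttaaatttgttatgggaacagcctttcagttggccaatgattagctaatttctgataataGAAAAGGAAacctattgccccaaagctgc
Nfkbia: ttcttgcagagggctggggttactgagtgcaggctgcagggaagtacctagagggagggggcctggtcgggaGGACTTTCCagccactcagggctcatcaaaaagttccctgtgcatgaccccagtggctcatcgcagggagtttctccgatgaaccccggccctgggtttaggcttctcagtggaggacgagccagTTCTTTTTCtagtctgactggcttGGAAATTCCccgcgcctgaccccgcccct
H2-Q7: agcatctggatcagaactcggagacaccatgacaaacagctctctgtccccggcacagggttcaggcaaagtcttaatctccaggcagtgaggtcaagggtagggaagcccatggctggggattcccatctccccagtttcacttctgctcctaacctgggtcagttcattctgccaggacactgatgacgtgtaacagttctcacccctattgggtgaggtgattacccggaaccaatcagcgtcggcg
A promoter was at hand for 6694 of the 8641 genes measured, and 7.77% of these held a response element match and 1.48% an NF-kB match. Among the genes higher in A20 cKO naive, 65 of 472 (13.8%) held a response element match and 14 (2.97%) an NF-kB match. Of the lower ones, 7 of 124 (5.65%) and 2 (1.61%) did. Interferon-stimulated genes held a response element match in 14 of 31 promoters (45.2%), and homeostatic genes in 0 of 23. Matches are a description of letters and not of binding.

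Tnfaip3 itself (mm10, chr10:19000910-19015657, minus strand) was not lower in the library labelled A20 cKO naive. Its level was 24.1 CPM (17.1 to 32.9) in control naive and 47.4 CPM (43.0 to 52.2) in A20 cKO naive, a log2 ratio of 0.96 (0.50 to 1.49), short of 2-fold. In the other libraries it was 25.3, 6.83 and 20.3 CPM at control days 1 to 3, and 42.3, 52.4 and 67.7 CPM at A20 cKO days 1 to 3. All 4 A20 cKO libraries thus lay above all 4 control libraries. Reads of this chemistry come from the 3′ end of a transcript, and whether that end lies in the deleted part is not given in the sources used here, so the level does not check the deletion. In the background of this comparison, 642 of 8641 genes (7.43%) were higher and 192 (2.22%) lower. Each count for a gene list in the naive pair is to be read beside these shares. Of 11 measured genes made up of Tnfaip3 and partners that bind A20 or edit the same ubiquitin chains, Cyld was higher and Otulin lower. Cyld, which cuts such chains, went from 27.2 to 71.2 CPM and stood at 73.6 CPM in control day 3. Otulin, which removes linear chains, went from 46.9 to 21.1 CPM and stood at 23.6 CPM in control day 3. Both levels in A20 cKO naive were close to those of control day 3, and the median log2 ratio of the 11 genes was 0.38.

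NF-kB subunits and inhibitors were 2 higher and 0 lower of 13 measured, with a median log2 ratio of 0.33 against 0.04 over all genes measured. Nfkbia, the inhibitor that NF-kB induces, stood at 205 CPM in control naive and 567 CPM in A20 cKO naive, a log2 ratio of 1.47 (1.31 to 1.63). Control day 3 had 374 CPM of it. Nfkbiz, another induced inhibitor, went from 25.9 to 53.8 CPM. The subunit Nfkb1 had a log2 ratio of -0.16 (-0.38 to 0.06). Among TNF receptor and cell death genes, 2 of 14 were higher, the survival gene Bcl2a1d (50 to 118 CPM) and Zbp1, a nucleic acid sensor that can start cell death (9.26 to 85.2 CPM). Bcl2a1d has near-identical copies, between which the counting may have split reads.

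**Figure D1:**
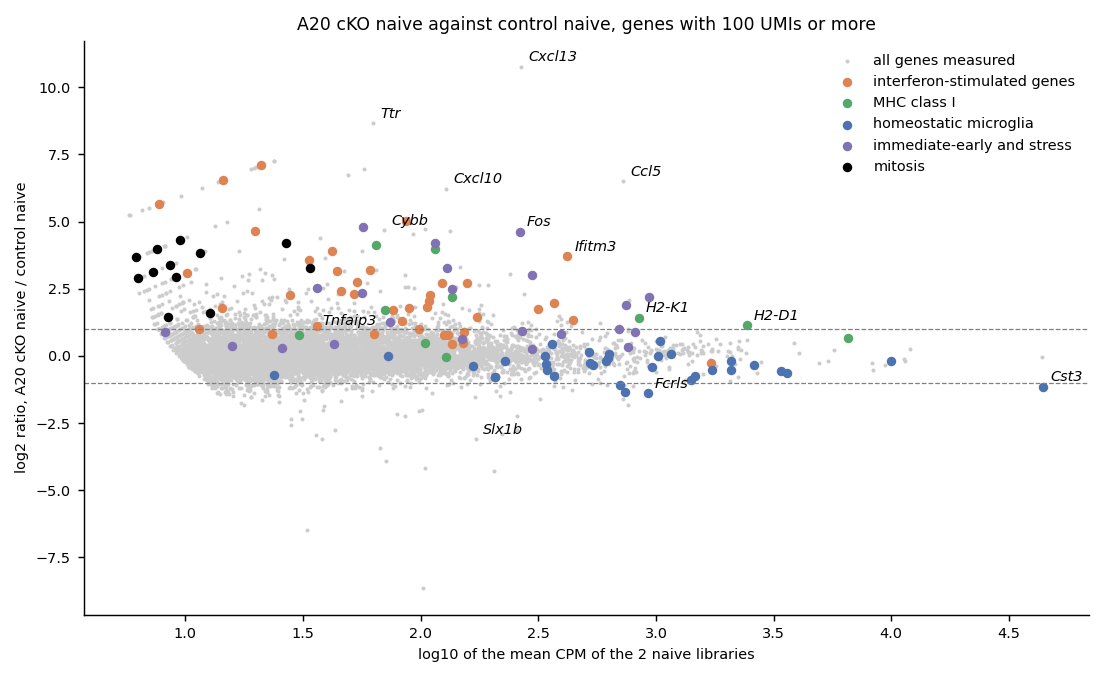
Log2 ratio of A20 cKO naive over control naive (y) against log10 of the mean CPM of both (x), 1 point per measured gene, with 5 gene lists in colour and dashed lines at 2-fold. Higher genes outnumber lower ones at 642 to 192, homeostatic genes (blue) sit near or under 0, and the ratios of genes with 0 UMIs in control naive, such as Cxcl13 and Ttr, depend on the 0.5 UMIs added.

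By the naming rule, the highest ratios among genes averaging 50 CPM or more belonged to Cxcl13, Ttr, Pydc4, Ccl5, Cxcl10, Ifit2, Fosb, Ccl2, Cybb, Ddit4, Fos, Egr1, H2-Q6, H2-Q7 and Ifitm3. They include 4 chemokines, 3 immediate-early transcription factors and 2 MHC class I genes. Interferon induces 3 others, Pydc4, Ifit2 and Ifitm3, and also the chemokine Cxcl10. Cybb (chrX:9435252-9487771), the catalytic subunit of the phagocyte NADPH oxidase, went from 4.94 to 135 CPM, a log2 ratio of 4.68 (3.79 to 5.98). It stood at 4.41, 4.74 and 25.9 CPM at control days 1 to 3 and at 154 to 273 CPM in the injured A20 cKO libraries, so the genotypes did not overlap. Ddit4, an inhibitor of mTORC1 that stress and glucocorticoids induce, went from 9.87 to 256 CPM, and control day 3 had 191 CPM of it. Without the single barcode that held most Ttr UMIs, Ttr had 165 UMIs in A20 cKO naive in place of 1122.

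The lowest ratios belonged to Exosc2, Slx1b, Snhg9, Churc1, Tmem80, Gp9, Fcrls, Tspan4, Ltc4s, B4gat1, Mfsd5, Snx24, Acss1, Ptafr and Pdgfb. In several of these, of which 6 picked after their values were seen are given, control naive was well above the other 7 libraries. Slx1b, a DNA structure-specific nuclease subunit, had 307 CPM in control naive and 35.9 CPM in A20 cKO naive, but only 56.3, 54.3 and 31.2 CPM at control days 1 to 3. Snhg9 had 130 CPM in control naive and 28.9 to 66.0 CPM elsewhere, Churc1 158 CPM and 34.6 to 67.3 CPM, and Tmem80 163 CPM and 32.2 to 45.3 CPM. Ptafr, the receptor for platelet-activating factor, had 147 CPM in control naive and 35.6 to 64.6 CPM elsewhere, and Acss1 78.4 CPM and at most 40.3 CPM. Exosc2, a subunit of the RNA exosome, was instead high in control naive, day 1 and day 2 (123, 66.2 and 109 CPM) and at 11.4 to 24.8 CPM in the other 5 libraries.

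**Figure D2:**
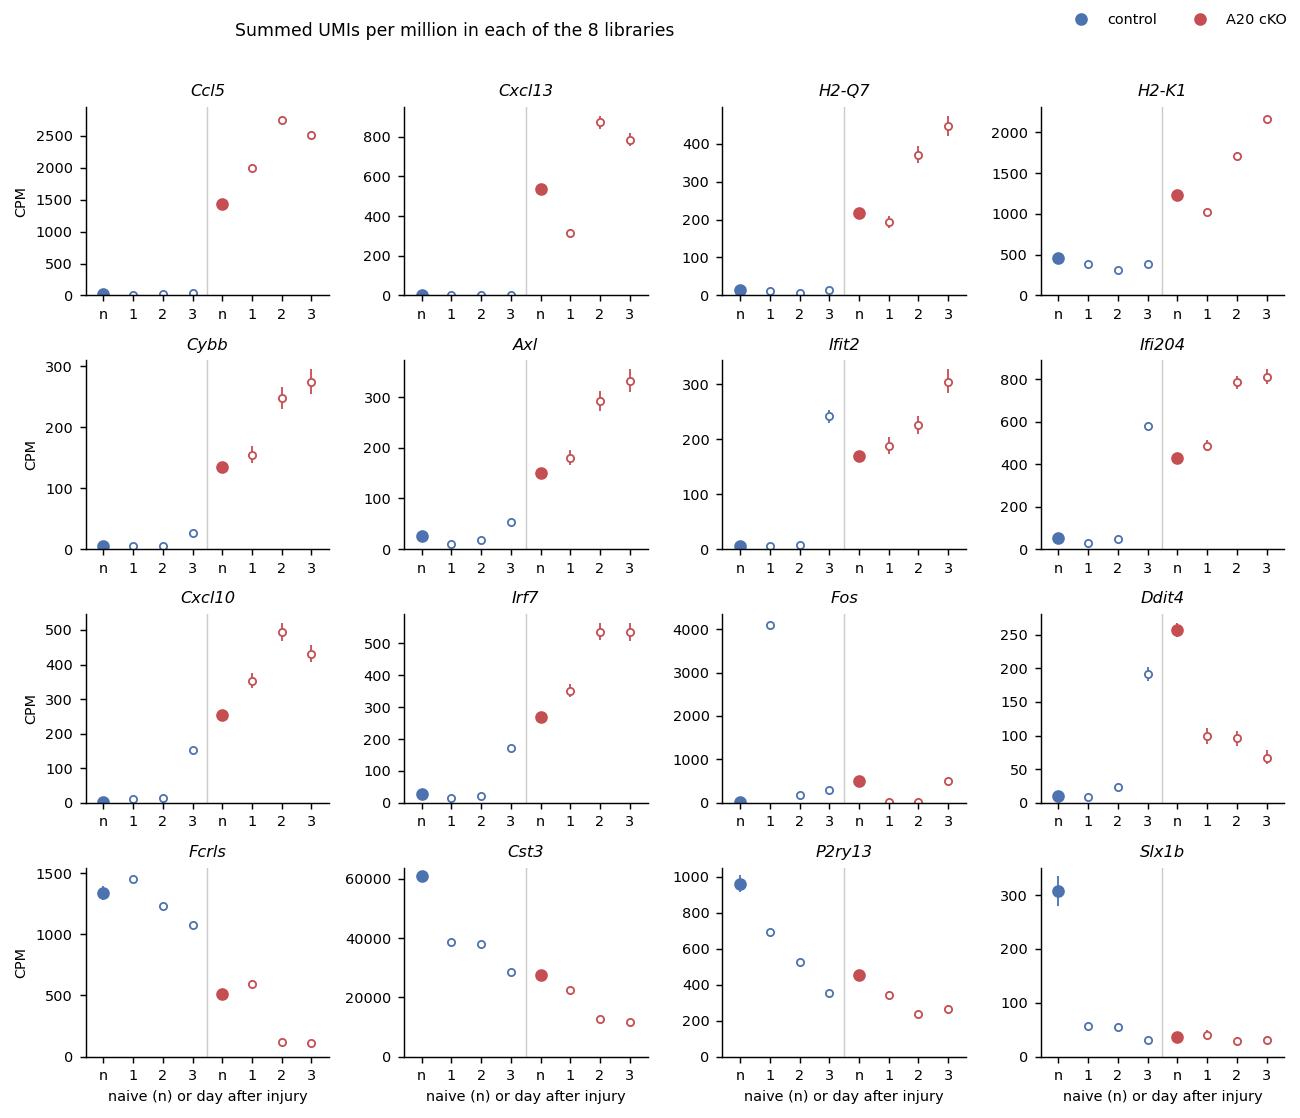
Level (CPM, y, each panel from 0) of 16 genes in the 8 libraries, control in blue and A20 cKO in red, naive (n, filled) and days 1 to 3 after injury (open), with exact Poisson 95% intervals. Ccl5, Cxcl13, H2-Q7, H2-K1, Cybb and Axl were high in the 4 A20 cKO libraries alone, Ifit2, Ifi204, Cxcl10, Irf7 and Ddit4 were also high in control day 3, and Slx1b was high in control naive alone.

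Chemokines, which attract leukocytes, made up 4 of the 15 highest genes. Of 9 CC chemokines measured 4 were higher and 1 lower, and the 8 CXC chemokines in the files summed to 80.8 CPM in control naive, 1094 CPM in A20 cKO naive and 257 CPM in control day 3. Of the 8, the 4 that were measured were Cxcl9, Cxcl10, Cxcl13 and Cxcl16, of which the first 3 passed the minimum through A20 cKO naive. Ccl5 (chr11:83525778-83530518), which draws T cells, had 15.4 CPM (10.0 to 22.8) in control naive and 1435 CPM (1411 to 1461) in A20 cKO naive, a log2 ratio of 6.51 (5.98 to 7.17). At control days 1 to 3 it had 6.26, 27.2 and 34.9 CPM, and at A20 cKO days 1 to 3 it had 2001, 2756 and 2508 CPM. The highest control library was thus far under the lowest A20 cKO library. Cxcl13 (chr5:95956951-95961068), which recruits B cells, had 0 UMIs in control naive and 536 CPM (521 to 551) in A20 cKO naive, at least 289-fold higher when 3 UMIs are allowed in control naive. Its other control levels were 0.142, 0 and 2.88 CPM, against 316, 872 and 785 CPM in the injured A20 cKO libraries. In sums over a library, more cells with a gene and more RNA per cell cannot be told apart.

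Cxcl16, a membrane-bound chemokine, went from 75.9 to 286 CPM and stayed between 82.9 and 96.2 CPM in the injured controls. Cxcl10, a T cell attractant that interferon induces, went from 3.09 to 253 CPM, with 153 CPM in control day 3. Ccl2, which attracts monocytes, went from 7.41 to 201 CPM, with 263 CPM in control day 3. Ccl12, with a similar role, went from 294 to 1236 CPM, with 1991 CPM in control day 3. Control day 3 thus had little Ccl5 and Cxcl13 and no more Cxcl16 than control day 2, but more Ccl2 and Ccl12 than A20 cKO naive. Ccl6 was lower, at 297 and 138 CPM, with 191 CPM in control day 3. Ccl7 and Cxcl9 rested on 1 UMI each in control naive, with log2 ratios of 5.45 (3.55 to 11.34) and 4.10 (2.18 to 9.99).

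MHC class I genes were higher in a way that control day 3 did not share. Of 10 measured, 6 were higher and 0 lower, with a median log2 ratio of 1.29. The same genes had a median of -0.06 for control day 3 over control naive, where 727 of 8302 genes (8.76%) were higher and 193 (2.32%) lower, and 0 of them were higher. Set against control day 3, A20 cKO naive had a median of 1.25 over these genes, and 5 were higher, where 92 of 9541 genes (0.964%) were higher and 142 (1.49%) lower. H2-K1 (chr17:33996017-34000347), a classical heavy chain, had 458 CPM (426 to 492) in control naive and 1231 CPM (1208 to 1254) in A20 cKO naive. It lay between 310 and 388 CPM in the injured controls and between 1026 and 2160 CPM in the injured A20 cKO libraries. H2-D1, the other classical heavy chain, went from 1514 to 3358 CPM, a log2 ratio of 1.15 (1.09 to 1.21). The nonclassical Qa-2 genes H2-Q6 and H2-Q7 had the largest ratios, 4.12 (3.33 to 5.19) and 3.96 (3.39 to 4.67). H2-Q7 (chr17:35439155-35443773) had 13.6 CPM in control naive, 10.6, 7.65 and 15.2 CPM at control days 1 to 3, and 216 CPM in A20 cKO naive. H2-Q4 went from 48.8 to 223 CPM and H2-T22 from 32.7 to 108 CPM. These genes are close copies of one another, and reads may have been split between them. B2m, the light chain shared by all of them, stood at 5041 and 8053 CPM, a log2 ratio of 0.68 (0.64 to 0.71), which is under 2-fold.

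Of 13 measured genes that cut peptides or load them onto class I, 2 were higher and 0 lower, with a median of 0.32. They were Tap1, a subunit of the peptide transporter (43.2 to 109 CPM, with 110 CPM in control day 3), and Nlrc5, the transactivator of class I genes (3.70 to 14.5 CPM, with 13.9 CPM in control day 3). Of the 7 measured MHC class II genes, which present peptides to CD4 T cells, 0 were higher and 0 lower, with a median log2 ratio of -0.60. H2-Ab1, a class II chain, stood at 45.7 and 29.2 CPM, and Cd74, the chain that escorts class II, at 105 and 186 CPM.

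Interferon-stimulated genes were higher too, and control day 3 shared this. Of 39 measured, 30 were higher and 0 lower in A20 cKO naive, with a median log2 ratio of 1.96. The median of the same genes was 2.04 for control day 3 over control naive and -0.13 for A20 cKO naive over control day 3. Ifit2 (chr19:34550694-34576419), which blocks viral translation, had 4.94 CPM in control naive, 5.05 and 8.16 CPM at control days 1 and 2, 242 CPM at control day 3 and 169 CPM in A20 cKO naive. Ifitm3, which hinders virus entry, had 59.2 CPM in control naive, 561 CPM in control day 3 and 781 CPM in A20 cKO naive. Isg15, a ubiquitin-like modifier, went from 37.6 to 182 CPM with 236 CPM in control day 3, and Ifit3 from 41.3 to 273 CPM with 363 CPM in control day 3. For these genes A20 cKO naive and control day 3 were both far above control naive, day 1 and day 2, and the difference from control naive cannot be told apart from the preparation.

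Of the list, 6 members lay 2-fold or more above control day 3 too. Lgals3bp, a secreted glycoprotein, had 146 CPM in control naive, 215 CPM in control day 3 and 488 CPM in A20 cKO naive. Oas1g, Oas2 and Oas3, which sense double-stranded RNA, had 0 UMIs in control naive and were at least 15.6-fold, 22.7-fold and 8.36-fold higher in A20 cKO naive. Their levels were 4.67, 12.2 and 4.25 CPM in control day 3 and 28.9, 41.9 and 15.5 CPM in A20 cKO naive. Oas1g has close copies in the genome. Ms4a4c, a membrane protein gene, had 4.94, 38.2 and 79.2 CPM in control naive, control day 3 and A20 cKO naive. Ifi44 rested on 3 UMIs in control naive, with a log2 ratio of 3.10 (1.75 to 5.61), and had 3.43 CPM in control day 3 and 18.5 CPM in A20 cKO naive.

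The IFI200 family, cytosolic DNA sensors and their relatives, summed over its 9 members to 75.9 CPM in control naive, 846 CPM in A20 cKO naive and 872 CPM in control day 3. Of the 9, 4 had 0 UMIs in control naive, and the 6 that were measured passed the minimum through A20 cKO naive. Ifi204 went from 51.8 to 428 CPM, with 579 CPM in control day 3. Mnda and Pydc4 rested on 1 UMI each in control naive, with log2 ratios of 6.72 (4.82 to 12.61) and 6.95 (5.05 to 12.84). Pydc4 had 33.5 CPM in control day 3 and 114 CPM in A20 cKO naive. The 7 Schlafen genes summed to 234, 631 and 807 CPM in the same order of libraries. The 16 interferon-induced GTPases summed to 232 CPM in control naive, 498 CPM in A20 cKO naive and 691 CPM in control day 3. Of the 16, 4 had 0 UMIs in control naive and 3 were not measured. Of the 13 measured, 8 were higher and 0 lower, and members rare in control naive passed the minimum through A20 cKO naive. Slfn5 had 3.09 CPM in control naive, 71.5 CPM in A20 cKO naive and 125 CPM in control day 3, and Gbp2 3.70, 31.3 and 68.1 CPM. Both were higher in control day 3 than in A20 cKO naive.

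Of 13 IRF and STAT factors, 3 were higher and 0 lower. Irf7 had 26.5 CPM (19.2 to 35.7) in control naive and 269 CPM (258 to 279) in A20 cKO naive, with 171 CPM in control day 3. Stat2 went from 27.2 to 76.7 CPM with 114 CPM in control day 3. Irf8, a factor that microglia need, stood at 813 and 697 CPM.

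Inflammatory cytokines and effectors were higher in 5 of 14 measured members, with a median log2 ratio of 0.21. Of the 22 listed, 8 were not measured and 4 had 0 UMIs in control naive. Higher members rare there, such as Il12b and Cd40, passed the minimum through A20 cKO naive. Tnf went from 16.7 to 54.2 CPM, with 34.9 CPM in control day 3 and 158 CPM in control day 1. Il1b went from 3.09 to 12.3 CPM with 1.78 CPM in control day 3. Il12b, a subunit of interleukin-12, had 0 UMIs in control naive and 23.4 CPM in A20 cKO naive, at least 12.7-fold higher. It did not exceed 0.549 CPM in any control library and reached 140 CPM in A20 cKO day 2. Vcam1, an adhesion molecule, had 3.70 CPM in control naive, 5.63 CPM in control day 3 and 48.8 CPM in A20 cKO naive. Cd40, a costimulatory receptor, rested on 2 UMIs in control naive, with a log2 ratio of 3.47 (1.91 to 6.85). Il1a and Icam1, picked after their values were seen, had log2 ratios of -0.68 (-0.92 to -0.42) and -0.42 (-0.62 to -0.22), both under 2-fold.

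Receptors and complement showed single genes. Tlr2, a receptor for bacterial lipoproteins, had 103 CPM in control naive, 86.3 CPM in control day 3 and 252 CPM in A20 cKO naive, and Tlr3 had 78.4, 207 and 179 CPM. The other 17 measured Toll-like receptors and adaptors were neither higher nor lower. Of 10 complement genes 2 were higher, C3 and C4b. C3, the central component, had 0 UMIs in control naive, 0.412 CPM in control day 3 and 27.6 CPM in A20 cKO naive, at least 14.9-fold higher. C1qa, the most abundant complement gene, stood at 12270 and 10714 CPM. Of 5 Fc gamma receptor genes Fcgr4 was higher, at 17.3 and 38.1 CPM with 69.2 CPM in control day 3, and of 8 inflammasome genes Nlrp1b was, at 15.4 and 36.7 CPM with 51.5 CPM in control day 3. Over all genes measured 7.43% were higher, so these small counts are not read as results about the lists.

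Homeostatic microglia genes were lower in 4 of 34 measured members and higher in none, with a median log2 ratio of -0.36. Their median was -0.45 for control day 3 over control naive and 0.07 for A20 cKO naive over control day 3. Fcrls (chr3:87250758-87263738), an Fc receptor-like gene of microglia, was also lower by 2-fold when A20 cKO naive was set against control day 3. It had 1336 CPM (1280 to 1394) in control naive, 1454, 1229 and 1078 CPM at control days 1 to 3 and 512 CPM (497 to 527) in A20 cKO naive. Ltc4s, which makes leukotriene C4, had 1061 CPM in control naive, 650 CPM in control day 3 and 413 CPM in A20 cKO naive. Cst3, a protease inhibitor and an abundant transcript, was as low in control day 3, with 60841 CPM in control naive, 28554 CPM in control day 3 and 27465 CPM in A20 cKO naive. P2ry13, a receptor for ADP, had 961, 353 and 453 CPM in the same order. P2ry12, Tmem119, Csf1r and Cx3cr1 had log2 ratios between -0.55 and -0.33, all under 2-fold.

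Disease-associated microglia genes, a set described around plaques and dying neurons, did not move as a whole. Of 22 measured 4 were higher and 2 lower, with a median log2 ratio of -0.10. Axl, a receptor for phosphatidylserine-binding ligands, had 25.3 CPM in control naive, 52.7 CPM in control day 3 and 151 CPM in A20 cKO naive, a log2 ratio of 2.56 (2.13 to 3.06). Itgax, the integrin CD11c, had 6.17, 3.98 and 21.9 CPM in the same order, and Cst7, another protease inhibitor, 9.87, 35.0 and 43.3 CPM. Lpl, lipoprotein lipase, went from 69.7 to 21.6 CPM with 28.3 CPM in control day 3, and Spp1, osteopontin, from 22.8 to 9.08 CPM with 61.3 CPM in control day 3.

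Immediate-early and stress genes, which cells switch on within minutes of a stimulus and also of tissue dissociation, were higher in 12 of 22 measured members and lower in none. Fos had 20.4 CPM (14.0 to 28.6) in control naive and 508 CPM (493 to 523) in A20 cKO naive, and Egr1 11.7 and 219 CPM with 79.7 CPM in control day 3. Across the series Fos ranged from 13.2 CPM in A20 cKO day 1 to 4105 CPM in control day 1, with 301 CPM in control day 3. Jun, at 338 and 1527 CPM, and Dusp1, a phosphatase that limits MAP kinases, at 24.1 and 236 CPM, were likewise higher in A20 cKO naive. A20 cKO days 1 and 2 had 177 and 184 CPM of Jun, under control naive. The 27 listed genes summed to 3538 CPM in control naive and 9115 CPM in A20 cKO naive. Their sums were 34487, 4913 and 6091 CPM at control days 1 to 3, and 3776, 3280 and 7574 CPM at A20 cKO days 1 to 3. The summed level thus did not divide the 8 libraries by genotype. Injury and possibly preparation differ between them, and the cause was not tested.

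Cell cycle genes had a higher summed level as well. The 22 mitosis genes summed to 42 CPM in control naive, 344 CPM in A20 cKO naive and 924 CPM in control day 3, and the 18 DNA replication genes to 267, 424 and 551 CPM. The 12 mitosis genes that were measured had 1 to 10 UMIs each in control naive and passed the minimum through A20 cKO naive. Top2a, a topoisomerase of dividing cells, had 6.17 CPM in control naive, 61.8 CPM in A20 cKO naive and 156 CPM in control day 3. Mki67, the proliferation marker Ki-67, had 2.47, 51.1 and 154 CPM in the same order, a log2 ratio of 4.20 (3.01 to 6.25) for the naive pair. At 2000 UMIs per cell, 79 of 2612 cells of A20 cKO naive (3.02%, 2.40% to 3.76%) carried UMIs of at least 3 mitosis genes, against 1 of 502 in control naive (0.199%, 0.00504% to 1.10%) and 8.73% in control day 3. For at least 3 DNA replication genes the shares were 5.02%, 0.996% and 8.89%. Cells with such UMIs were thus few in A20 cKO naive, and fewer than in control day 3.

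None of the 15 glycolysis genes and none of the 42 cytosolic ribosomal protein genes was higher or lower, and their medians were 0.13 and 0.18. Of 13 mitochondrially encoded genes only mt-Nd5 was higher, near the 7.43% over all genes measured. It stood at 168 and 401 CPM with 640 CPM in control day 3, and the list's median was 0.48 against 0.86 for control day 3 over control naive.

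Markers of other cell types were low but not equal. The summed level of the 6 neutrophil markers was 0 CPM in control naive, 46.5 CPM in A20 cKO naive and 39.1 CPM in control day 3, led by S100a8 with 15.9 CPM in A20 cKO naive. Oligodendrocyte markers summed to 84.5, 153 and 152 CPM in that order, and Mbp, a myelin protein, to 24.7, 79.9 and 80.3 CPM. Monocyte markers summed to 8.02, 42.8 and 36.0 CPM, of which Plac8 alone made 32.1 CPM in A20 cKO naive. Slc1a3, an astrocyte glutamate transporter, went from 161 to 380 CPM with 252 CPM in control day 3. It made up nearly all of the 7 astrocyte markers, which summed to 164, 394 and 261 CPM in that order. Of these 7, 5 had 0 UMIs in control naive, so the rise of Slc1a3 does not by itself describe astrocytes. Pecam1 of the endothelium was lower, at 51.2 and 23 CPM with 19.2 CPM in control day 3. It was the only marker measured of the 7 for endothelium and pericytes, and the other 6 had 0 UMIs in control naive. The 7 summed to 51.2 CPM in control naive, 27.9 CPM in A20 cKO naive and 41.6 CPM in control day 3. Pecam1 alone therefore does not describe the level of such cells. Lymphocyte markers summed to 43.2 and 32.1 CPM, neuron markers to 5.55 and 6.17 CPM, border macrophage markers to 1.23 and 6.62 CPM, erythroid markers to 0 and 6.84 CPM and choroid plexus markers, nearly all Ttr, to 0 and 127 CPM. The part of such cells or their free RNA in the differences was not tested gene by gene. The counts of higher genes for the interferon-stimulated (30) and MHC class I (6) lists did not change when cells with UMIs of 3 or more markers of another cell type were left out. That step kept all 568 cells of control naive and 2869 of 2922 of A20 cKO naive. The counts thus had little room to change, and free RNA was not removed by it.

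**Figure D3:**
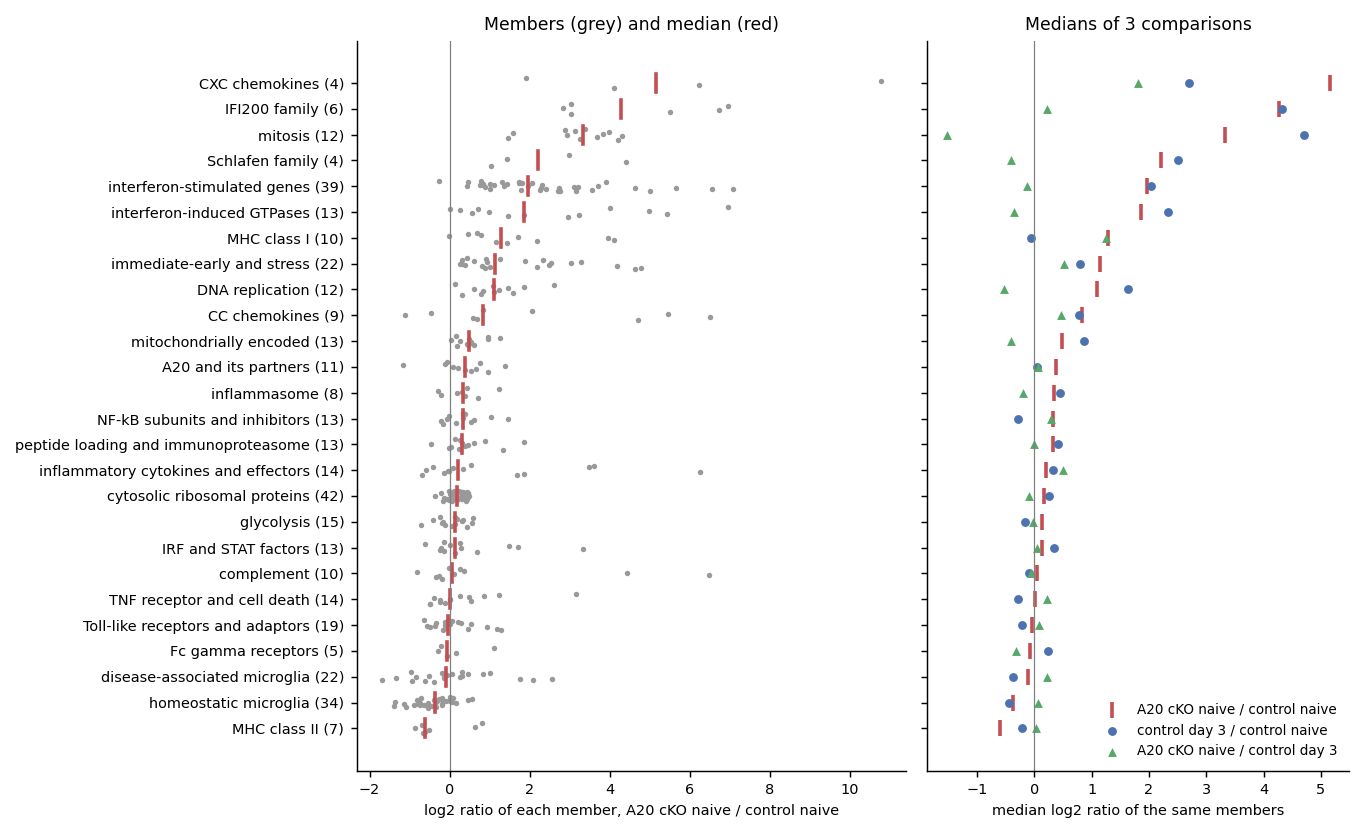
Left, log2 ratio of A20 cKO naive over control naive for each measured member (grey) of the gene lists, with the list's median (red bar) and the number measured in parentheses. Right, the medians of the same members in 3 comparisons that share libraries: the MHC class I median is 1.29 and 1.25 against the controls and -0.06 between them, while the interferon-stimulated median is near 2 for both A20 cKO naive and control day 3 over control naive.

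The genotypes could also be set side by side at day 3 after injury, where both libraries had Ttr UMIs. There A20 cKO over control gave 158 of 8488 genes higher (1.86%) and 204 lower (2.4%). MHC class I was higher in 8 members with a median of 1.94, homeostatic genes were lower in 6 with a median of -0.56, and Ccl5 and Cxcl13 had log2 ratios of 6.17 and 8.06. Interferon-stimulated genes were higher in 11 with a median of 0.44. These values come from injured animals and were not tested.

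The share of cells with a UMI tells whether a difference was spread over many cells. Every cell was thinned to 2000 UMIs, which kept 502 cells of control naive and 2612 of A20 cKO naive and left out 66 and 310 that were shallower. Ccl5 was found in 2.39% of control naive cells (1.24% to 4.14%) and 47.9% of A20 cKO naive cells (45.9% to 49.8%), or 2.64% and 54.3% without thinning. Control day 3 had it in 2.40% of cells and A20 cKO day 3 in 74.9%. Cxcl13 was found in 0 of 502 cells, which allows a share of up to 0.598% (3 cells of 502, a limit on carrying a UMI and not on expression), and in 12.9% of A20 cKO naive cells (11.6% to 14.2%). The 10% of A20 cKO naive cells richest in Cxcl13 held 96.0% of its UMIs, against 70.5% for Ccl5 and 37.8% for H2-K1, so most Cxcl13 UMIs came from a small number of cells. A single cell held up to 232 of its UMIs.

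H2-Q7 was found in 2.99% and 27.2% of cells, Cybb in 1.20% and 15.6%, Axl in 3.59% and 20.8% and Irf7 in 4.78% and 30.7%. Without thinning these were 3.70% and 34.3%, 1.41% and 20.4%, 4.93% and 28.7% and 6.51% and 37.8%. Fcrls was found in 87.6% of control naive cells (84.4% to 90.4%) and 50.2% of A20 cKO naive cells (48.2% to 52.1%), a difference of -37.5 percentage points (-40.7 to -33.8). Tnfaip3 was found in 5.18% of control naive and 8.04% of A20 cKO naive cells. At the same depth control day 3 had Cybb in 3.67%, Axl in 8.68% and Fcrls in 79.3% of cells. No other cell type was numerous enough here to give a background share for free RNA, so its part in these shares was not tested.

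**Figure D4:**
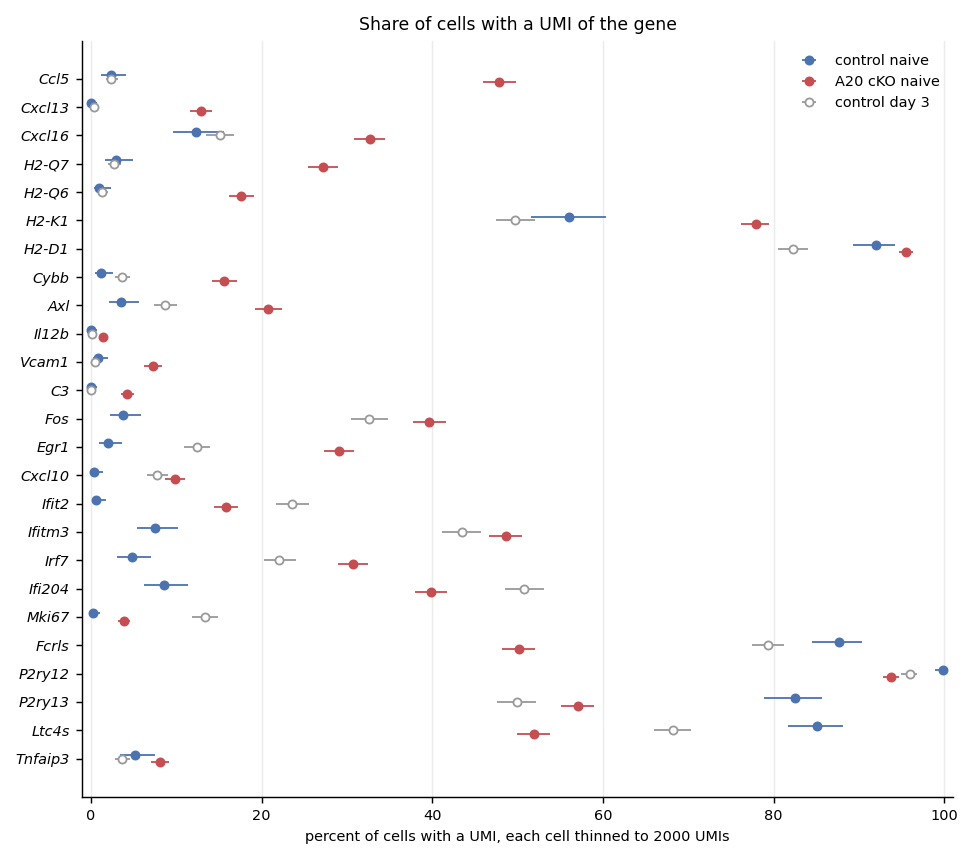
Percent of cells with a UMI of each of 25 genes (x) after thinning every cell to 2000 UMIs, in control naive (blue), A20 cKO naive (red) and control day 3 (open grey), with exact Clopper-Pearson 95% intervals. For Ccl5, Cxcl13, H2-Q7 and Cybb the red points stand apart from both controls, and for Ifit2, Ifi204 and P2ry13 control day 3 lies nearer to A20 cKO naive than to control naive.

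Differences from control naive were uneven among the cells of A20 cKO naive. UMIs of the 10 MHC class I genes were summed in each cell of 2000 UMIs. More than 50% of the list's summed level in both naive libraries was B2m, whose own ratio was under 2-fold. The sum was not taken without B2m, so it does not describe the heavy chains alone. Their median was 13.5 UMIs in control naive and 20 in A20 cKO naive, while the 10th percentiles were 8 and 9 UMIs and the 90th percentiles 23 and 49 UMIs. Of 2612 A20 cKO naive cells, 1094 (41.9%, 40.0% to 43.8%) lay above 25 UMIs, the 95th percentile of control naive. In control day 3 the share was 1.92% and in A20 cKO day 3 it was 92.8%. Such cells are a range of a score and not a cell type, and 272 A20 cKO naive cells (10.4%) lay within 3 UMIs of that value. Homeostatic UMIs per cell had a median of 213.5 in control naive, 132 in A20 cKO naive and 129 in control day 3, but more than 50% of the list's summed level in control naive was Cst3. Without Cst3 the medians were 92, 73 and 70 UMIs, with 10th and 90th percentiles of 72 and 112 UMIs in control naive and 44 and 99 UMIs in A20 cKO naive. The humps that A20 cKO naive showed with Cst3, with 15.2% of cells between 80 and 99 UMIs, 9.88% between 120 and 139 and 14.6% between 140 and 159, were not seen without it, where shares per 10 UMIs rose to 17.3% between 70 and 79 UMIs and then fell.

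**Figure D5:**
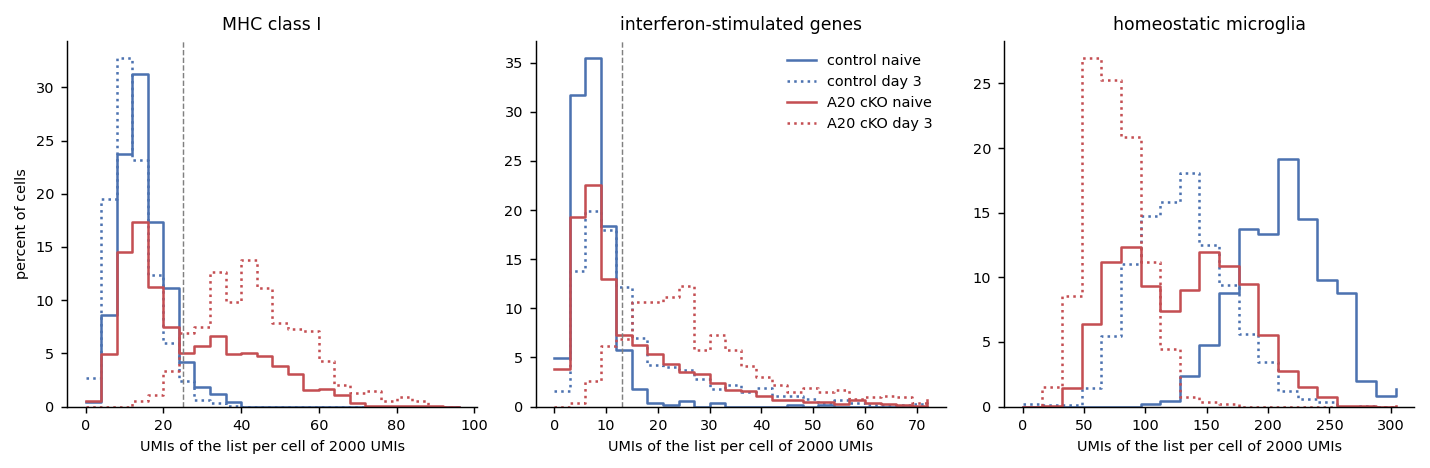
Percent of cells (y) by the UMIs of 3 gene lists per cell of 2000 UMIs (x, last bin open), for control naive (blue), control day 3 (blue dotted), A20 cKO naive (red) and A20 cKO day 3 (red dotted), with the 95th percentile of control naive dashed in the first and second panels. A20 cKO naive covers the control naive range of MHC class I and adds cells between 25 and 80 UMIs, and its homeostatic UMIs, which include Cst3, have humps that are not seen without Cst3.

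The gene lists overlapped in the same cells of A20 cKO naive. Among the 1094 cells above the MHC class I value, 75% were also above the 95th percentile of control naive for interferon-stimulated genes (13 UMIs), against 8.37% of the 1518 other cells. The mean of the interferon-stimulated genes was 23.5 UMIs in the former and 7.77 UMIs in the latter, with 7.18 UMIs in control naive and 15.4 UMIs in control day 3. In control day 3, by contrast, 713 of 1878 cells (38.0%) were above the interferon value and 20 of these (2.81%) above the MHC class I value. In A20 cKO naive it was 820 of 947 (86.6%). The interferon-stimulated genes thus had similar means per cell in control day 3 (15.4 UMIs) and A20 cKO naive (14.3 UMIs), while the share of such cells that were also above the MHC class I value differed.

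Cells above the MHC class I value carried Ccl5 in 72.5%, Cxcl13 in 19.9%, Cybb in 30.9% and Axl in 36.3%, and the other A20 cKO naive cells in 30.1%, 7.77%, 4.61% and 9.55%. Fcrls was the reverse, at 26.3% and 67.3%, with 87.6% in control naive. Their homeostatic genes without Cst3 had means of 57.5 and 83.5 UMIs, with 92.6 UMIs in control naive. On the same sum, 69.4% of the cells above the value lay under the 5th percentile of control naive, against 12% of the others. Ribosomal protein genes had means of 138 and 92.0 UMIs, and control naive 99.9. Immediate-early genes went the other way, with 15.2 UMIs above the value and 20.6 UMIs in the other cells, both over the 7.12 UMIs of control naive. Cells above the value were deeper before thinning, with a median of 3465.5 UMIs against 2678.5. These contrasts lie within 1 library, and cells of 1 library are not replicates. Since all cells hold 2000 UMIs, a higher share for some genes lowers the rest.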

How the data were processed

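Counts were the values deposited by the authors, as gene by barcode matrices of whole-number UMIs with 1 matrix per library. The submitters' processing notes name Cell Ranger 2.1.1 and the build mm10. The labels name version 3.1 of the 10x kit and the methods an earlier one. Cells were kept at 1000 or more UMIs, 500 or more genes and at most 10% mitochondrial UMIs. No doublet caller was run, and cells with UMIs of 3 markers of another type were left out as an alternative. UMIs were summed per library and divided by the library total. Intervals at 95% were exact conditional binomial for ratios, exact Poisson for CPM, Clopper-Pearson for shares and Newcombe for differences of shares. Cells were thinned without replacement to 2000 UMIs for shares and per-cell sums.

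The genes named were the 15 highest and 15 lowest ratios with a mean of at least 50 CPM and an interval off 0, leaving out mitochondrial, ribosomal protein, Xist, Y-linked and clone-named genes. Members of the 36 gene lists past 2-fold or with high CPM, and Tnfaip3, were named too. List members named below 2-fold were chosen after their values were seen. Members and lists were chosen with earlier results of these data known. Of 523 list symbols 7 were not matched and are not analysed here. Values of some list members are not reported here. Gene positions come from the GENCODE annotation of the same build.

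Python 3.11.15 with NumPy 2.4.6, pandas 2.3.3 and SciPy 1.17.1 was used, and edgeR 4.0.16 in R 4.3.3 for the TMM factors of 1 alternative. The ratio step was tested on simulated data. Alternatives were cell filters, scalings, count minimums, the added count, thinning and leaving out groups of cells.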

Additional observations from a re-analysis of the deposited data

Results flagged for a closer look

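Ddit4, an inhibitor of mTORC1, was past 2-fold in opposite directions in the naive and day 3 pairs, the only one of 144 named genes and list members past 2-fold to be so. Its log2 ratio of A20 cKO over control was 4.65 (4 to 5.51) in naive animals and -1.51 (-1.75 to -1.28) at day 3, a difference of 6.16. The control libraries had 9.87, 8.04, 23.2 and 191 CPM at naive and days 1 to 3, and the A20 cKO libraries 256, 98.7, 95.6 and 66.9 CPM. The difference between the pairs was not tested, since each group had 1 library.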

How the results depend on the processing

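No paired analysis was possible because each group had 1 library, and for the same reason no library could be left out. Over 14 alternatives the counts of genes moved mainly with the count minimum. With at least 30 UMIs 883 genes were higher and 371 lower, and with no minimum 918 and 727. With at least 300 UMIs 370 were higher and 67 lower. The part of the called genes that was higher was thus 55.8% with no minimum, 70.4% at 30 UMIs and 84.7% at 300 UMIs. The excess of higher genes therefore depends on the minimum. With A20 cKO naive thinned to the total of control naive, 295 were higher and 94 lower among 5058 genes measured. Other scalings of the totals left 72.3% to 79.1% of the called genes higher, against 77.0%, and adding 3 UMIs left 69.0%. Of 144 named genes and list members, Dut and Cenpf reversed, with log2 ratios of -0.40 and -0.65 when cells with UMIs of 3 mitosis or 3 DNA replication genes were left out. In that alternative 0 mitosis genes were higher, and 27 of the 144 lost their call as higher or lower. The call was lost by 53 with A20 cKO naive thinned and by 39 at 300 UMIs. A gene that falls under the count minimum loses its call too. Under that thinning 39.9% of the higher and 39.1% of the lower genes kept their call. MHC class I had 6 higher members in each alternative and interferon-stimulated genes 24 to 31. Ttr, without the barcode that held most of its UMIs (chosen after seeing the data), was at least 9.99-fold higher, against at least 68.0-fold. Of the shares of cells for 144 genes, 0 reversed, while 98 moved without thinning. The 568 cells of control naive set the counting error, since 3 UMIs there are 1.85 CPM.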
